A study of Mus musculus with 27 samples.

Results

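Liver RNA of mice fed a high-iron diet (HID) was compared with that of mice fed a standard-iron diet (SID), gene by gene over the whole transcriptome. The genes compared were the 9548 of 22552 in the RNA table whose mean over the 3 diets of the study was at least 1 FPKM, where FPKM is a count of fragments scaled to transcript length and library size. Both groups were male C57B/6J mice, 3 per diet, that started their diet at 6 weeks of age. HID held 8.3 g of carbonyl iron per kg of food and SID held 50 mg per kg. A further group of 3 male mice began food low in iron (LID), with 0.9 mg per kg, when they were 3 weeks old. LID entered here through the mean used to choose the genes and through values set beside the others. The labels give neither the length of feeding nor the time of day of collection. The table holds 1 combined FPKM value per gene and diet, so values are printed with no SD and no n.

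The liver senses body iron and sets iron uptake through the hormone hepcidin. When iron accumulates, liver endothelial cells release the ligand BMP6, hepatocyte receptors phosphorylate SMAD proteins, and these switch on hepcidin together with genes that restrain the same pathway. The mouse liver is also among the organs most different between the sexes, because growth hormone is released in pulses in males and more evenly in females. Hepatocytes further answer interferon, unfolded protein and metals with separate gene programmes, and each of these has well-known target genes. In whole liver, fewer cells of a type and less RNA per cell cannot be told apart.

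The depth of the libraries is not known, since the table gives no counts. The listed FPKM of all genes summed to 467304 in SID and 485504 in HID. Of the 9548 genes, 9473 carried a test of HID against SID in the authors' deposited table and 75 did not. Among the untested genes, 26 had a status word marking too much data, and all 26 were listed at 0 in SID, although 0 of them were listed at 0 in HID. Apoe, a main lipoprotein component, was one of them, and Serpina3k and Mup20 were others. Alb, which encodes albumin, was listed at 0 in all 3 diets. These zeros are not read as absence, and the genes carry no comparison. The sum over all genes includes the 26 genes in HID but not in SID. The tested genes alone summed to 458751 FPKM in SID and 432551 in HID, the opposite order. Hepatocyte transcripts were abundant, with Ttr, the thyroxine carrier transthyretin, at 5633 FPKM in SID and 5328 in HID. The Y-linked gene Ddx3y was at 11.3 and 13.8 FPKM, and Xist, which is transcribed from the inactive X chromosome, was at 0.00187 and 0.01103 FPKM in these male livers.

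In the authors' deposited table, 631 of the 9473 tested genes had an adjusted p below 0.05 and are referred to as called. They made up 6.66% of the tested genes, 267 higher in HID (2.82%) and 364 lower (3.84%). Changes are given as the difference of log2(FPKM + 1), which understates the change of genes with low values. Over all tested genes the median change was −0.07, with quartiles of −0.25 and 0.12, and 39.6% of them were above 0. The called genes had a median change of 0.93 where higher and −0.81 where lower. At a difference of at least 2-fold on the FPKM + 1 scale, 116 genes were higher and 116 lower, and at 16-fold 7 were higher and 6 lower. The genes called lower together fell from 22909 to 8342 FPKM, and those called higher rose from 3997 to 12124. The share of genes called lower was 2.52% among genes with a mean of 1 to 2 FPKM and 6.38% among those of 50 to 200 FPKM. The share called higher was 3.26% and 2.71% in the same ranges. Of the tested genes, 44 were under 1 FPKM in both SID and LID and so entered through their HID value, and 17 of these were called higher. Likewise 28 entered through SID alone, of which 5 were called lower. The rule on the mean has no step in the values around it: 108 genes lay less than 0.05 FPKM above the limit with a median difference of −0.0009, and 103 genes lay at most 0.05 FPKM below it with 0.03.

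**Figure D1:**
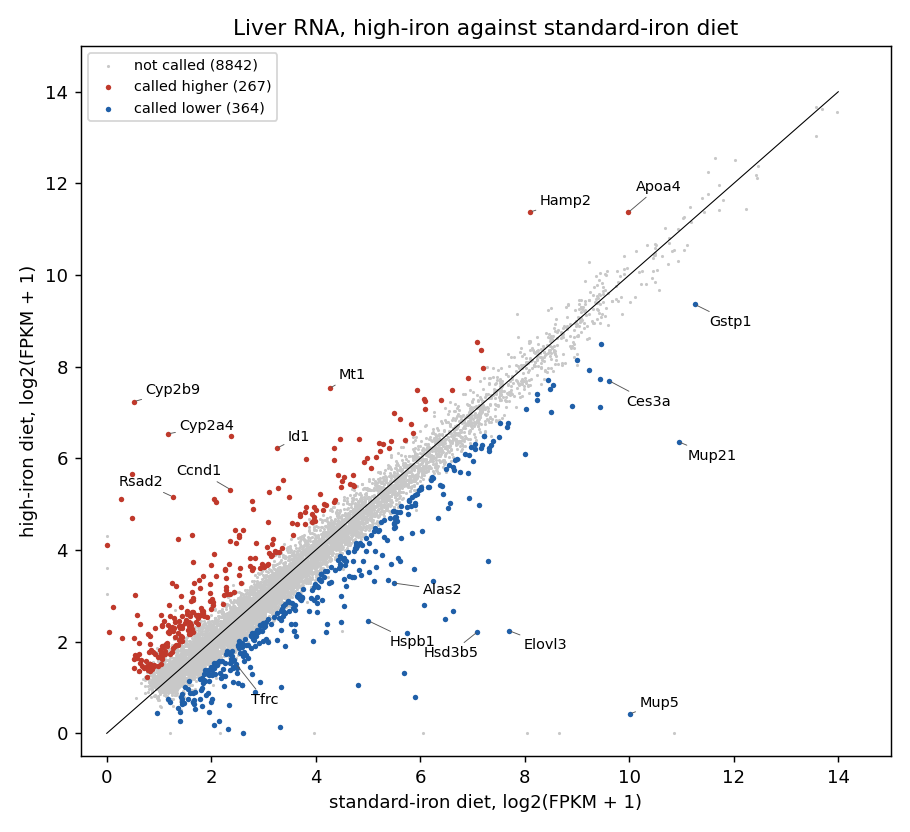
Each point is 1 of 9473 tested genes, with log2(FPKM + 1) in SID on the x axis and in HID on the y axis; red marks the 267 genes called higher, blue the 364 called lower, and the line marks equal values. Most genes lie close to the line, while Cyp2b9 and Hamp2 stand far above it and Mup5 and Mup21 far below; grey points on the lower edge are genes listed at 0 in HID and not called.

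Gene lists covering 59 pathways, families and cell types held 1663 genes, of which 1327 were tested. Of the called genes, 224 were on a list and 407 were on none. In 8 lists 0 members were called. Among lists with at least 5 tested members the shares called differed widely, from 21 of 22 lower among male-biased genes to 4 of 5 higher among flavin-containing monooxygenases. Lists share members, and each count is a description beside the 2.82% higher and 3.84% lower found over all tested genes. A list median is given as the change relative to the median of all tested genes.

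**Figure D2:**
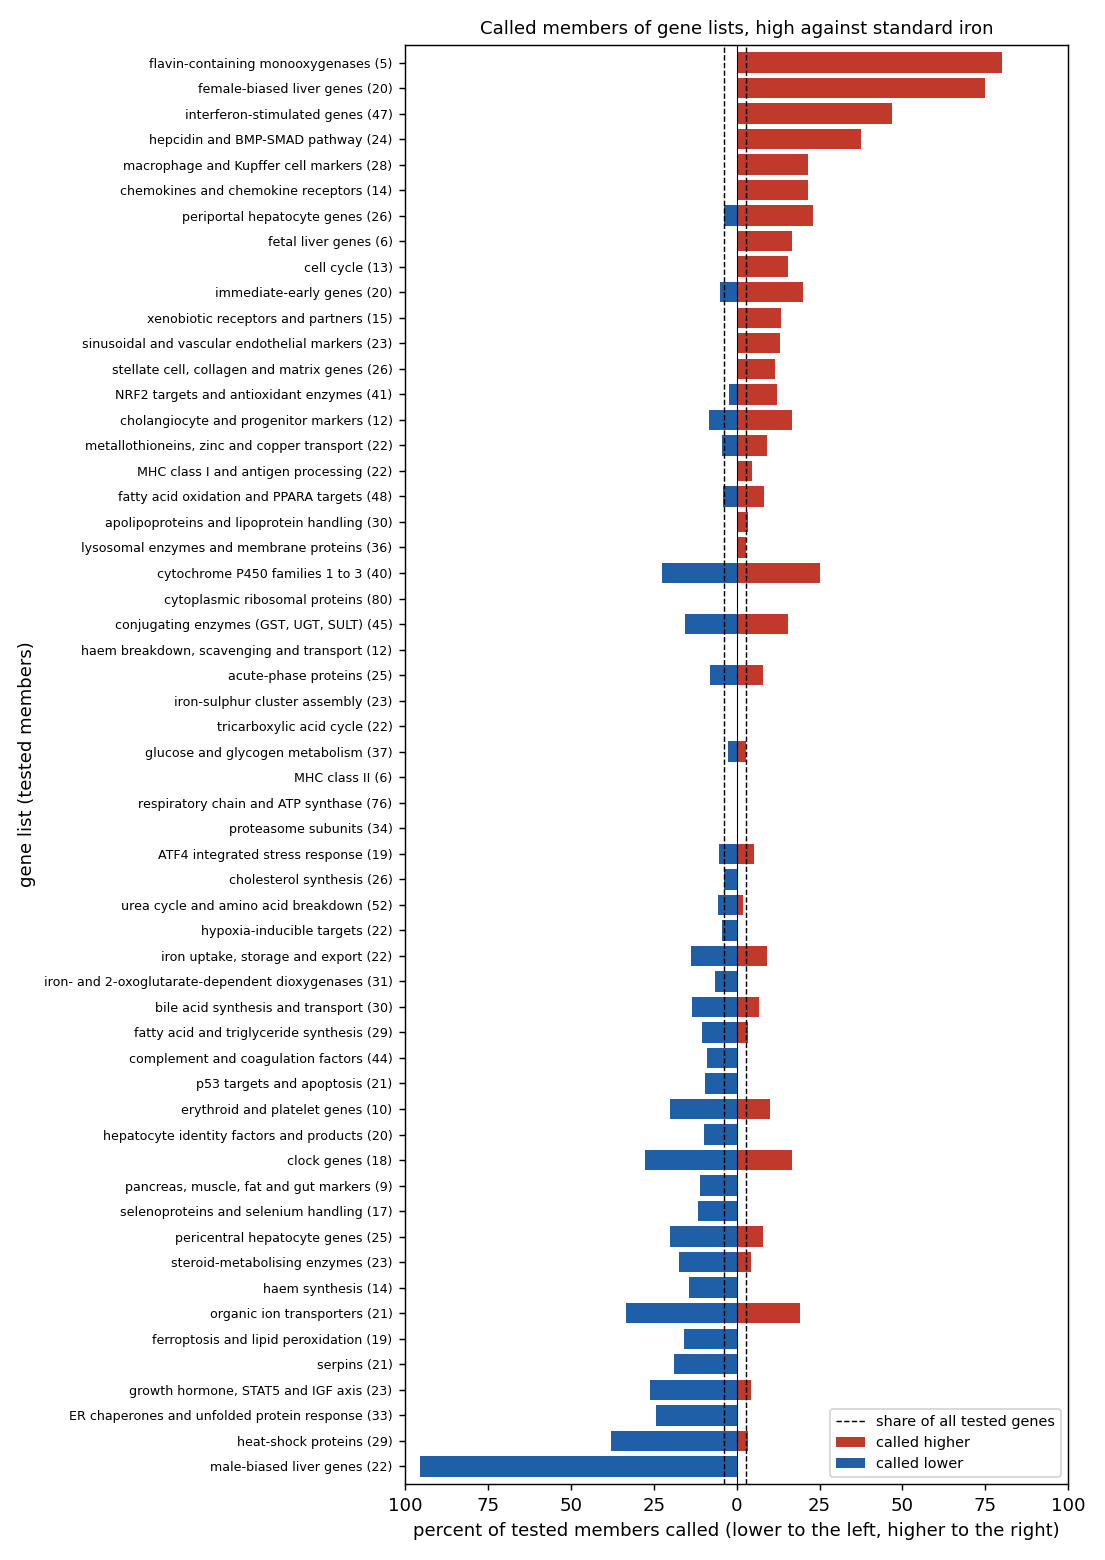
Each row is a gene list with at least 5 tested members (number in brackets), with bars for the percent of tested members called higher (red, right) and lower (blue, left) in HID against SID; dashed lines mark 2.82% and 3.84%, the shares of all tested genes. Female-biased, interferon-stimulated and hepcidin-BMP genes have the long bars to the right, and male-biased, heat-shock and endoplasmic reticulum genes those to the left.

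Part of the hepcidin and BMP-SMAD pathway rose in HID. Of 24 tested members 9 rose and 0 fell, and the list median was 0.60. Of those 9, 2, Bmp6 and Id4, were under 1 FPKM in both other diets and so entered through their HID value. Among the ligands, Bmp6, the main iron-responsive ligand of the liver, rose from 0.803 to 2.51 FPKM, and Bmp2, which also drives hepcidin from endothelial cells, rose from 3.73 to 7.096. The receptors stood close to their SID values. Acvr1, a type I receptor, was at 3.42 FPKM in SID and 3.38 in HID, and Bmpr1a, another type I receptor, was at 5.76 and 6.23. Neither receptor was called (adjusted p = 0.995 and 0.915 in the authors' deposited table). The SMADs that carry the signal differed among themselves. Smad9, which encodes SMAD8, rose from 1.66 to 5.78 FPKM (adjusted p = 3.45e-12 in the authors' deposited table), while Smad1 stood at 3.48 and 4.07 and Smad5 at 3.09 and 2.41, neither called.

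The inhibitors and targets of the pathway held most of its rise. The inhibitory SMAD genes Smad7 (1.66 to 6.93 FPKM) and Smad6 (2.06 to 3.90) both rose, with log2 changes of 1.57 and 0.68. Id4, a dominant-negative helix-loop-helix factor, rose from 0.4599 to 7.14 FPKM, and its relative Id1 rose from 8.54 to 73.6. Id3, another relative, stood at 52.04 and 81.01 FPKM and Id2 at 101 and 145, and neither passed the threshold (adjusted p = 0.0582 and 0.218 in the authors' deposited table). Hamp2 rose 9.67-fold, from 275 to 2659.6 FPKM. Hamp, which encodes the hepcidin that acts in iron balance, was at 3200 FPKM in SID and 6028 in HID (adjusted p = 0.0685 in the authors' deposited table). Hamp and Hamp2 are near-identical copies, so the split of reads between them is uncertain. Tmprss6, the protease that dampens the pathway, stood at 103 FPKM in SID and 72.6 in HID without being called.

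The genes that take up, store and export iron moved in both directions. Of 22 tested members 2 rose and 3 fell, and the list median was 0.01. On the uptake side, Slc11a2, the transporter DMT1, fell from 5.55 to 2.15 FPKM, and Tfrc, the transferrin receptor, fell from 4.56 to 1.85. Steap3, a reductase that works beside that receptor in endosomes, fell from 5.36 to 2.82 FPKM (adjusted p = 0.0129 in the authors' deposited table). All 3 genes called lower act on iron that enters the cell with transferrin. The importer of iron not bound to transferrin, Slc39a14, was at 18.7 FPKM in SID and 19.5 in HID and was not called. On the export side, Slc40a1, which encodes ferroportin, rose from 35.9 to 79.95 FPKM. The iron sensors stood closer together: Ireb2, an iron regulatory protein gene, was at 11.02 and 14.1 FPKM, Aco1, the other one, at 35.2 and 23.7, and Fbxl5, which marks the product of Ireb2 for breakdown, at 7.84 and 10.6. None of these 3 was called. Ncoa4, the receptor for ferritin breakdown, was at 35.7 FPKM in SID and 40.1 in HID and was not called either.

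The haem synthesis genes that passed the test were all lower in HID. Of 14 tested members 0 rose and 2 fell (14.3%, beside 3.84% over all tested genes). In all, 12 of 14 were below 0, and the list median was −0.31. Alas2, the red-cell form of the first enzyme, fell from 43.99 to 8.71 FPKM, and Abcb10, a mitochondrial transporter needed for haem synthesis, fell from 6.15 to 2.72. Alas1, the first enzyme in hepatocytes, stood at 95.5 FPKM in SID and 60.5 in HID and was not called (adjusted p = 0.0862 in the authors' deposited table). Alas2 is also a red-cell marker. The globin gene Hba-a1 stood at 518 FPKM in SID and 540.1 in HID, and Hbb-b1 at 177 and 207. The red-cell list as a whole, tested or not, summed to 811 FPKM in SID and 829 in HID, most of it from these globin genes. Of its 10 tested members 1 rose, Car2 (1.98 to 4.06 FPKM), and 2 fell, Alas2 and Car1 (4.36 to 1.17 FPKM). The 12 tested genes of haem breakdown and transport and the 23 of iron-sulphur cluster assembly had 0 called members, with list medians of 0.12 and 0.01. Iscu, the scaffold on which clusters are built, was at 87.04 FPKM in SID and 58.2 in HID (adjusted p = 0.0927 in the authors' deposited table).

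The metal-binding metallothioneins rose 10.1-fold (Mt1) and 21.1-fold (Mt2). Mt1 rose from 18.3 to 184 FPKM and Mt2 from 4.22 to 88.96, and they were the only genes called higher among 22 tested genes of metallothioneins and of zinc and copper transport. Slc30a10, an exporter of manganese and zinc, was the only one called lower, from 10.6 to 6.19 FPKM. The zinc-sensing regulator Mtf1 was at 1.496 FPKM in SID and 1.29 in HID, and Slc30a1, a zinc exporter, was at 4.99 and 5.52, neither called. In LID, Mt1 was listed at 109 and Mt2 at 52.6 FPKM, so SID had the lowest value of the 3 diets for both.

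Listed sex-biased liver genes moved towards the female pattern in these male livers. These lists, like the others, were chosen with earlier results of these data known, so their counts are descriptions only. Of 22 tested male-biased genes 21 fell and 0 rose, with a list median of −1.82, and of 20 tested female-biased genes 15 rose and 0 fell, with a list median of 1.59. Of those 15, 2 were under 1 FPKM in both other diets. Dntt was the 1 male-biased gene that was not called, at 2.55 FPKM in SID and 1.98 in HID. Among the male-biased genes, Slco1a1, an organic anion uptake carrier, fell from 156 to 12.5 FPKM, Susd4, a complement regulator, fell from 3.16 to 0.1304, and Gstp1, an abundant glutathione transferase, fell from 2448 to 655. Among the female-biased genes, Slc22a27, an organic anion carrier, rose from 0.403 to 24.8 FPKM, and Abcd2, a peroxisomal fatty acid transporter, rose from 4.53 to 16.8. Not all female-biased genes stood highest in HID: Cyp2c40, an arachidonic acid epoxygenase, was at 21.6 FPKM in SID, 44.5 in HID and 265 in LID. The female-biased list as a whole, tested or not, summed to 108 FPKM in SID, 570 in HID and 609 in LID. Prlr, the prolactin receptor, was the 1 female-biased gene below 0, at 4.01 FPKM in SID and 3.84 in HID.

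The major urinary proteins, pheromone carriers that male mouse livers make in bulk, could be compared in part only. All 4 tested members fell, among them Mup4 from 58.3 to 0.745 FPKM and Mup6 from 50.9 to 1.501. The other 16 members were listed at 0 in SID and above 0 in HID with no test. Many of the 20 members are near-identical copies, so the share of reads given to single members can be uncertain, and no change of the family as a whole is stated.

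Genes of the growth hormone axis fell in part, with 1 of 23 tested members higher, 6 lower and a list median of −0.34. The epidermal growth factor receptor gene Egfr fell from 64.7 to 20.3 FPKM, Serpina12, which encodes the adipokine vaspin, fell from 34.6 to 11.4, and Igfals, the stabilising partner of circulating IGF1, fell from 30.04 to 14.6. Foxa1, a liver transcription factor, fell from 7.48 to 4.61 FPKM and Socs3, an inhibitor of cytokine receptors, fell from 2.84 to 1.44. Lepr, the leptin receptor, was the 1 member that rose, from 3.25 to 9.87 FPKM. The growth hormone receptor Ghr was at 162 FPKM in SID and 88.6 in HID, its signal carrier Stat5b at 7.69 and 5.55, and its product Igf1 at 104 and 79.2. None of the 3 was called (adjusted p = 0.149, 0.276 and 0.812 in the authors' deposited table).

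**Figure D3:**
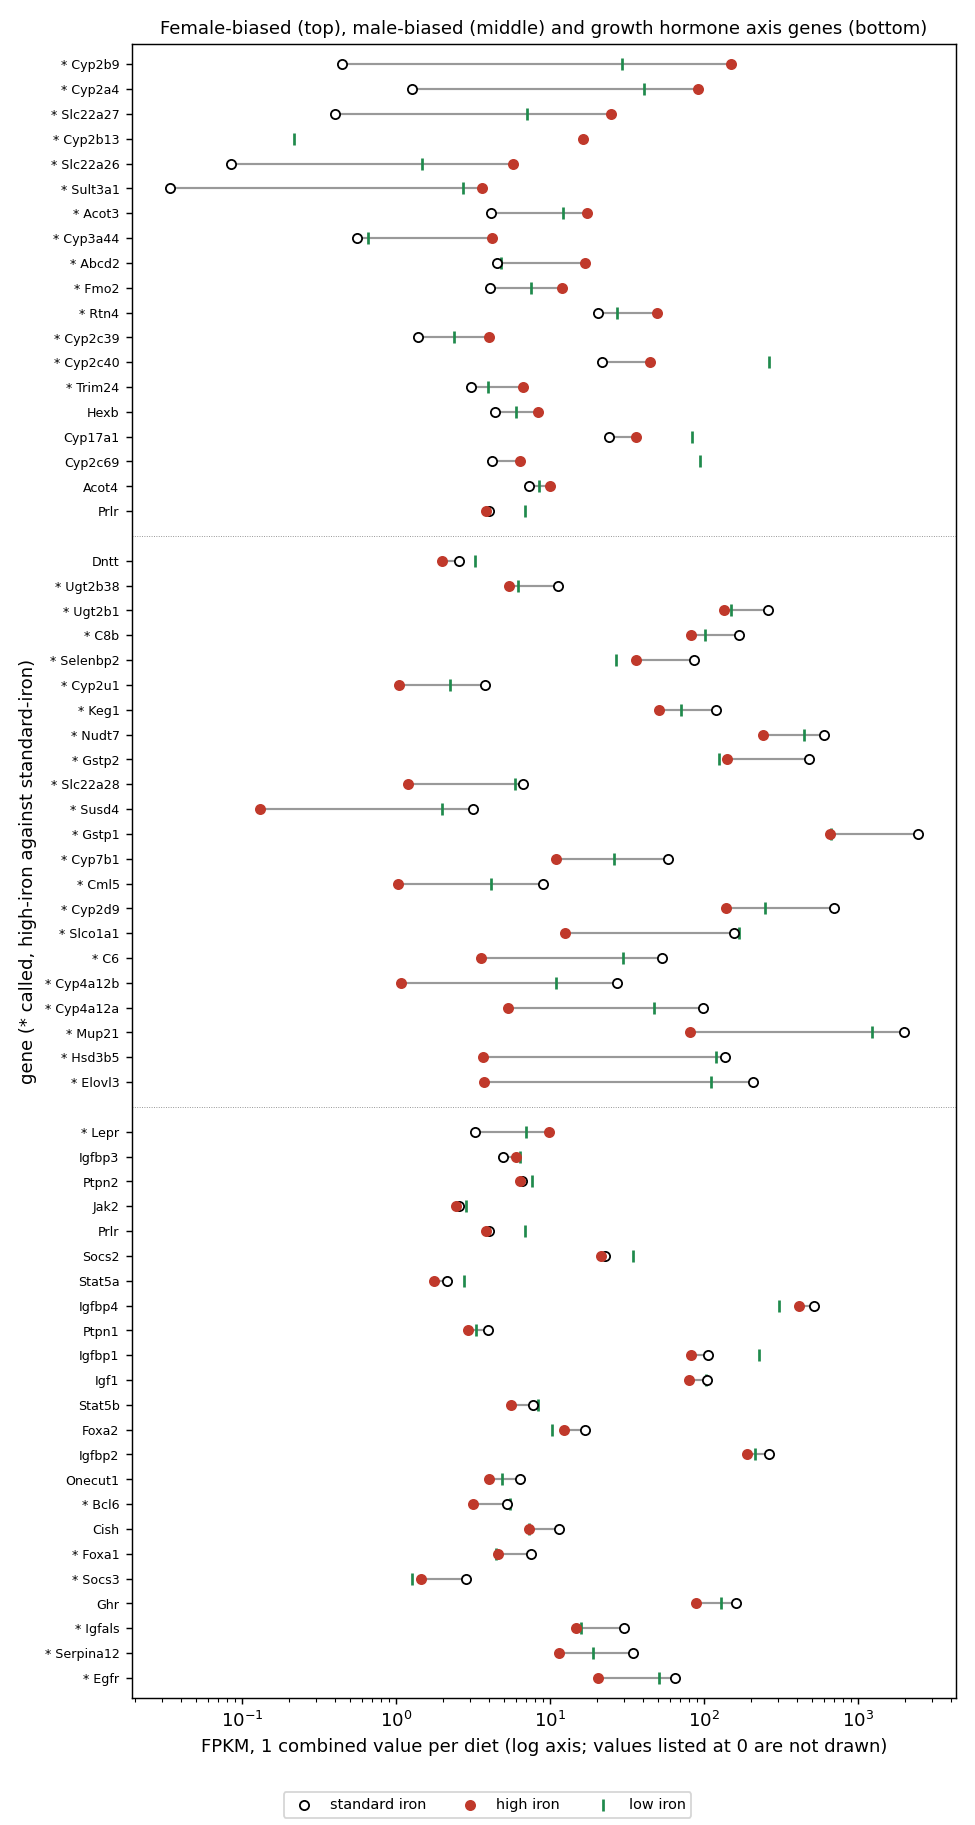
Each row is a tested gene with its combined FPKM in SID (open circle), HID (red) and LID (green bar) on a log axis; stars mark genes called in HID against SID, and values listed at 0 and 1 female-biased gene are not drawn. HID lies right of SID for the female-biased genes drawn except Prlr and left of SID for all 22 male-biased genes; in the growth hormone axis 21 of 23 lie to the left.

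The drug-metabolising cytochromes P450 of families 1 to 3 split, with 10 of 40 tested genes higher and 9 lower. Of the 10, 3 were under 1 FPKM in both other diets, Cyp2b10 among them, and so entered through their HID value. Of the 9, Cyp2d12 was under 1 FPKM in HID and LID. Cyp2b10, which the receptor CAR induces, rose from 0.208 to 33.5 FPKM, Cyp2a22 rose from 1.58 to 17.9 and Cyp3a59 rose from 4.46 to 20.7. On the other side, Cyp1a2, which metabolises caffeine, fell from 159 to 70.5 FPKM, Cyp2c44 fell from 91.6 to 29.4 and Cyp2d40 fell from 79.7 to 24.8. Cyp2e1, the ethanol-inducible form, was at 2192 FPKM in SID and 1615 in HID and was not called. Members of these families are close copies, so single values are uncertain where reads could be split. Of the receptors themselves, Ahr rose from 4.097 to 7.24 FPKM, while Nr1i3, which encodes CAR, was at 29.1 and 25.01 and Nr1i2, which encodes PXR, at 20.9 and 22.6, neither called. Ahr and Tiparp, a target of its product, were both of the genes called among 15 tested receptors and partners.

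Flavin-containing monooxygenases rose in 4 of 5 tested cases. Among them, Fmo1 rose from 67.01 to 135 FPKM and Fmo2 from 4.06 to 11.98. Conjugating enzymes went both ways, with 7 of 45 tested genes higher and 7 lower. Sult1d1, a sulfotransferase of catecholamines, rose from 66.1 to 156 FPKM and Gsta1 rose from 2.195 to 8.71, while Ugt3a1, a glycosyltransferase, fell from 42.5 to 11.99. Organic ion transporters, the carriers that bring drugs and bile acids into the cell, had 4 of 21 tested members higher and 7 lower. Slc22a7, an organic anion carrier, fell from 22.2 to 9.27 FPKM, and Slc22a29, a relative, rose from 0.227 to 3.23.

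Antioxidant genes did not move together. Of 41 tested targets of the stress factor NRF2 and antioxidant enzymes, 5 rose and 1 fell, with a list median of −0.07. The quinone reductase gene Nqo1 rose from 2.94 to 8.57 FPKM, Akr1b7, an aldose reductase relative, from 0.461 to 2.29, and Abcc3, an export pump, from 14.3 to 26.5. Gclm, a subunit of the enzyme that limits glutathione synthesis, went the other way, from 54.03 to 32.9 FPKM. Gclc, the catalytic subunit, stood at 51.3 FPKM in SID and 49.7 in HID, the thioredoxin reductase gene Txnrd1 at 26.1 and 21.6, and Gpx4, which repairs lipid peroxides, at 489 and 442. None of these 3 was called. Among 19 tested genes of ferroptosis, an iron-dependent form of cell death, 0 rose and 3 fell: Tfrc, Aldh3a2, which clears fatty aldehydes (48.4 to 30.0 FPKM), and Nox4, an oxidase that makes hydrogen peroxide (10.6 to 4.202). Of the cystine importer Slc7a11 no comparison was made, since it lay under 1 FPKM. Among 17 tested genes of selenoproteins and selenium handling 2 fell, Selenbp2, a selenium-binding protein gene (85.6 to 36.3 FPKM), and Dio1, a thyroid hormone deiodinase (71.2 to 40.6 FPKM). Of 31 tested dioxygenases that need iron as cofactor 0 rose and 2 fell, the collagen-modifying enzymes P4ha1 (3.15 to 1.704 FPKM) and Plod1 (10.1 to 6.36).

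Interferon-stimulated genes, which cells switch on against viruses, were higher in HID. Of 47 tested members 22 rose and 0 fell, 47 of 47 were above 0, and the list median was 0.69. The enzyme viperin, Rsad2, rose from 1.39 to 34.9 FPKM, Ifit1, which binds foreign RNA, from 3.28 to 31.9, and the ubiquitin-like modifier Isg15 from 9.32 to 45.1. The sensors rose less: Ifih1, which senses long double-stranded RNA, went from 3.79 to 10.9 FPKM, and Zbp1, which senses nucleic acids of left-handed form, from 4.77 to 18.97. Among the transcription factors, Irf7 rose from 15.9 to 36.4 FPKM, while Irf9 was at 9.05 and 11.1 and was not called. Usp18, the feedback inhibitor of the interferon receptor, rose from 3.00 to 11.8 FPKM. Interferon also controls antigen presentation genes. Of 22 tested MHC class I genes 1 rose (4.55%, beside 2.82% over all tested genes), the regulator Nlrc5 (1.06 to 1.87 FPKM). Of these genes 16 were above 0, and the list median was 0.21. H2-K1 was at 774 FPKM in SID and 775 in HID, and H2-Q1, with the lowest change, at 7.62 and 3.13, neither called. Of 6 class II genes 0 were called.

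Promoters of called interferon genes were searched for the interferon-stimulated response element (GAAA, any 2 bases, GAAA) on both strands, in windows from 250 bases before to 50 bases after the start of each gene (RefSeq, build GRCm38.p6). Overlapping matches were each marked, and a gene was counted once, if any of its windows held the element. The element was found for 3.99% of all 27018 genes with a promoter and for 3.68% of the 7637 tested genes with one. It was found for 13.1% of 198 such genes called higher and 4.23% of 284 called lower. Of the 16 called interferon genes with a promoter 8 held it. A match is a description of letters and not evidence of binding. The stretches of 120 bases that follow belong to Rsad2, Ifit1 and Isg15, the 3 called interferon genes described above with a match before the start, and show how the matches are spaced. They read 5′ to 3′ on the strand of the gene, and capitals mark the matches, which appear as TTTC, any 2 bases and TTTC where the element lies on the other strand.
Rsad2 (chr12:26456453-26456572, minus strand): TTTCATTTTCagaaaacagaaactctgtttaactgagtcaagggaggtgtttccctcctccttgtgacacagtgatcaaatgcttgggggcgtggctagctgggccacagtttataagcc
Ifit1 (chr19:34640769-34640888, plus strand): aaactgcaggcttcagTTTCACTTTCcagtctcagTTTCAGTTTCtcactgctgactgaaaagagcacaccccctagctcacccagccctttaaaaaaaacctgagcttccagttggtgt
Isg15 (chr4:156200819-156200938, minus strand): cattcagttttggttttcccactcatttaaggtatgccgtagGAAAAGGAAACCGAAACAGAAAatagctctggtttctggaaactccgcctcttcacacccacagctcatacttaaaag
Rsad2 has 1 match at the far end of its stretch, Ifit1 has 2 matches that do not touch, and Isg15 has 3 that overlap in 1 run. Metallothionein promoters are not shown, because the metal response element TGCNCNC was found for 63.2% of the tested genes with a promoter. The heat-shock element (GAA, any 2 bases, TTC, any 2 bases, GAA) was found for 2 of 11 called heat-shock genes and 0.615% of tested genes with a promoter. The BMP response element GGCGCC was found for 2 of 6 called pathway genes with a promoter and 24.7% of tested genes with one.

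Part of the protein-folding genes fell in HID. Of 29 tested heat-shock genes 11 fell and 1 rose, with a list median of −0.54. The list as a whole, tested or not, summed to 2463 FPKM in SID, 1753 in HID and 1587 in LID, so SID had the highest sum. Hsph1, a partner of HSP70, fell from 28.2 to 10.01 FPKM, Stip1, which links HSP70 with HSP90, from 40.4 to 17.6, and Dnajb1, an HSP40 cochaperone, from 15.2 to 6.86. In LID they were at 10.5, 23.1 and 7.62 FPKM. Bag3, which directs chaperones to autophagy, fell from 21.1 to 11.9 FPKM. Hspa2 was the 1 member that rose, from 0.781 to 1.64 FPKM, and it was under 1 FPKM in both other diets. The abundant constitutive chaperone Hspa8 was at 930.4 FPKM in SID and 570.4 in HID and was not called (adjusted p = 0.303 in the authors' deposited table). The mitochondrial chaperones Hspd1 (183 and 167 FPKM) and Hspe1 (254 and 263) were not called either.

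In the endoplasmic reticulum, 8 of 33 tested genes fell, 0 rose, 31 of 33 were below 0, and the list median was −0.35. Here too SID had the highest sum, with 3198 FPKM against 2341 in HID and 2241 in LID. Hyou1, a chaperone of the lumen, fell from 37.8 to 13.8 FPKM, Syvn1, a ligase of the degradation pathway, from 27.4 to 10.8, and Manf, a secreted stress protein, from 82.7 to 41.5. Hspa5, the master chaperone BiP, stood at 488 FPKM in SID and 295 in HID, and Xbp1, a transcription factor of the response, at 113 and 94.1, neither called. The ATF4 arm had 1 of 19 tested members higher, Trib3, and 1 lower, the alanyl-tRNA synthetase gene Aars. Trib3, a pseudokinase, rose from 1.11 to 2.70 FPKM. Among 34 proteasome genes 0 were called, with 29 of 34 below 0 and a list median of −0.10.

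**Figure D4:**
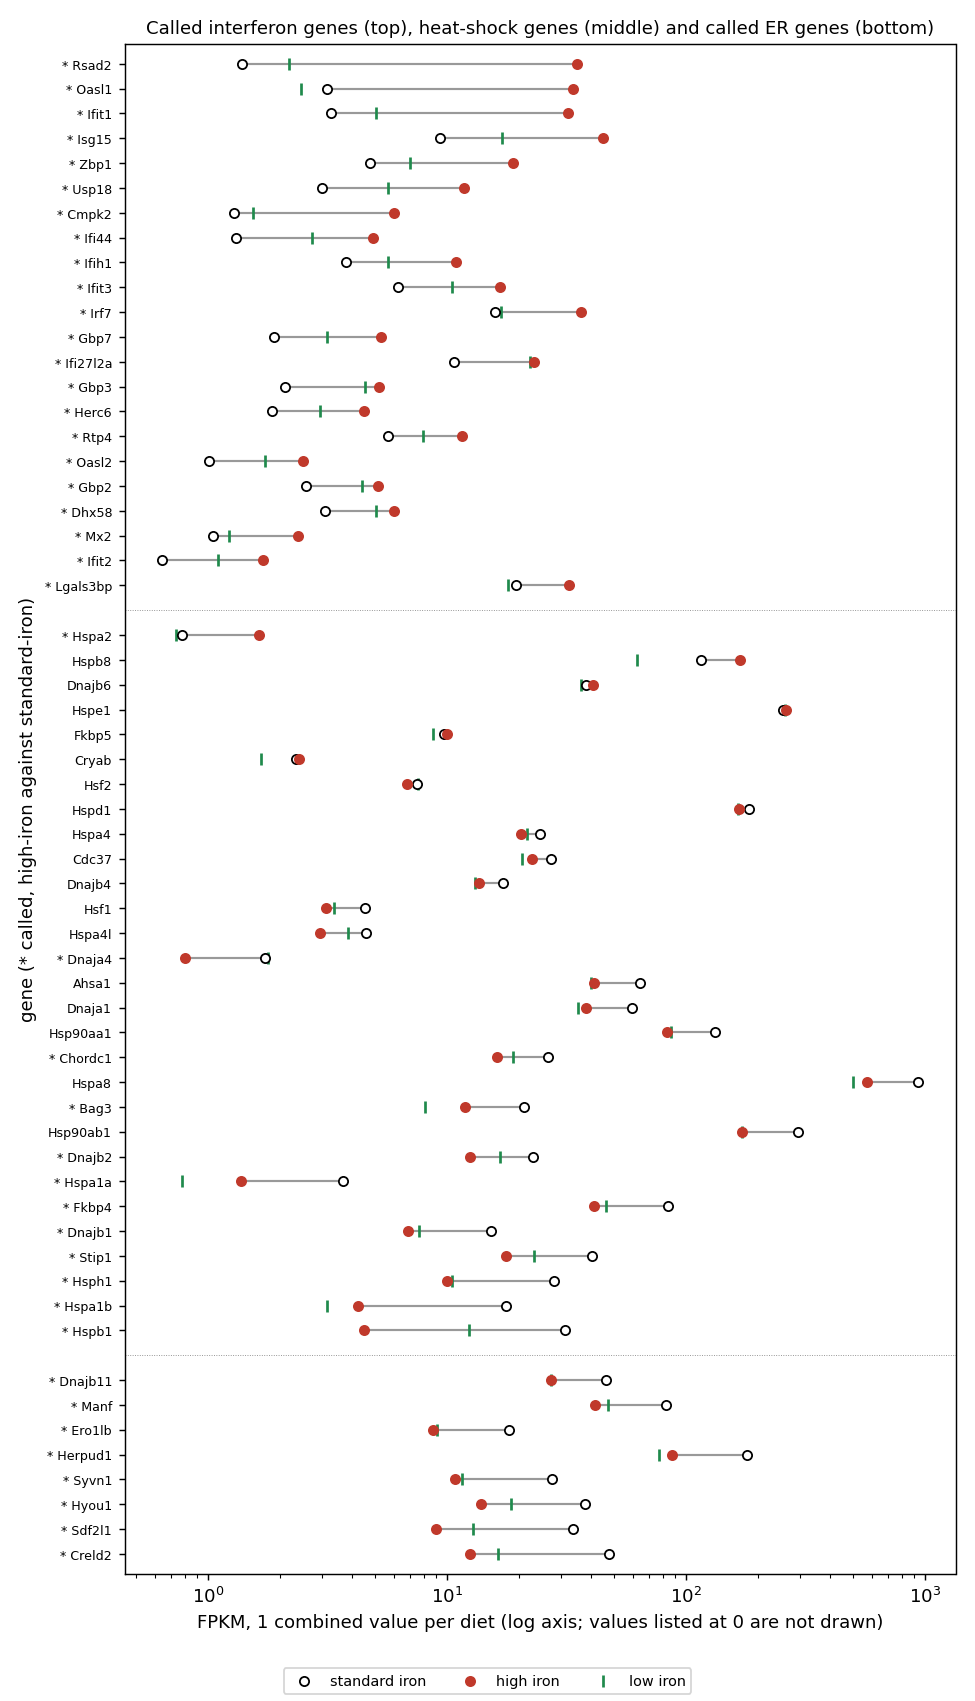
Each row is a gene with its combined FPKM in SID (open circle), HID (red) and LID (green bar) on a log axis; the parts are the 22 called interferon genes, all 29 tested heat-shock genes and the 8 called endoplasmic reticulum genes, with stars on called genes. HID lies right of SID in all 22 rows of the top part and left of SID in all 8 rows of the bottom part.

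Markers of immune cells rose in part. Of 28 tested macrophage and Kupffer cell markers 6 rose, 0 fell and 27 were above 0, with a list median of 0.48. Their summed level was 369.9 FPKM in SID, 537 in HID and 549 in LID, so LID was not below HID. Trem2, a lipid receptor of macrophages, rose from 0.485 to 2.12 FPKM and was under 1 FPKM in both other diets, and Cd5l, a Kupffer cell product, rose from 25.5 to 40.9. Clec4f, a receptor made by mouse Kupffer cells, was at 24.9 FPKM in SID and 39.1 in HID (adjusted p = 0.0572 in the authors' deposited table). The neutrophil markers S100a8 (2.38 to 9.15 FPKM), S100a9 (3.804 to 10.9) and Lcn2 rose among 4 tested, but Lcn2 is also made by hepatocytes. In LID, S100a8 was at 96.7 and S100a9 at 82.7 FPKM, above HID, while Lcn2 was at 8.33 in LID and 18.6 in HID. The granule genes Camp and Ngp stayed under 1 FPKM in both diets, and Mpo was listed at 0. Of the T, B and NK cell markers 3 were tested and 0 called, and Cd3e and Ncr1 were both under 1 FPKM. Among chemokines 3 of 14 rose: Cxcl10, an interferon-driven attractant of T cells (1.45 to 4.76 FPKM), Ccl6 (3.86 to 8.14) and Ccl9 (17.4 to 30.7). How far cell numbers had a part in the interferon, chemokine or lysosomal results was not tested.

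Other cell types gave differing counts, beside 2.82% higher and 3.84% lower over all tested genes. Endothelial markers had 3 of 23 higher and a list median of 0.00, and 2 of the 3 were the BMP ligands; Pecam1 was at 3.55 FPKM in SID and 3.64 in HID and Stab2 at 2.12 and 1.69. Of 26 stellate cell and matrix genes 3 rose, with a list median of 0.31: Vim, an intermediate filament gene (7.92 to 13.9 FPKM), Lum, a matrix proteoglycan (4.92 to 8.704), and Hgf, the hepatocyte growth factor (0.764 to 1.56). The collagen gene Col3a1 was at 3.06 FPKM in SID and 3.77 in HID, and Acta2, a marker of activated stellate cells, at 1.03 and 0.802, neither called. Of 12 cholangiocyte and progenitor markers 2 rose and 1 fell. Tff3, a secreted mucosal peptide, fell from 74.7 to 8.97 FPKM, while Krt19 was at 1.06 and 1.73. Mesothelial markers, a set put together after the values were seen, had 8 of 10 tested members higher, of which Rspo1 was under 1 FPKM in both other diets, and a summed level of 16.9 FPKM in SID and 46.4 in HID. Msln, which encodes mesothelin, rose from 1.29 to 3.57 FPKM and Upk3b from 1.61 to 4.498. Mesothelium covers the liver surface, and its share of each sample was not tested. Pancreas, muscle, fat and gut markers had 1 of 9 lower, the pancreatic amylase gene Amy2a5 (4.31 to 1.71 FPKM), and a summed level of 259 and 258 FPKM.

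Some genes that mark zones of the liver lobule changed, in both directions. Of 25 tested pericentral genes, which lie near the central vein, 2 rose and 5 fell, and of 26 tested periportal genes 6 rose and 1 fell. The list medians were −0.14 and 0.07. Slc1a2, a pericentral glutamate transporter, fell from 11.1 to 4.24 FPKM, Oat, which breaks down ornithine, from 132 to 72.5, and Rhbg, an ammonium transporter, from 2.55 to 0.979. Rhbg was under 1 FPKM in LID as well. Glul, the glutamine synthetase gene that defines the innermost zone, was at 228 FPKM in SID and 138 in HID (adjusted p = 0.0905 in the authors' deposited table). On the periportal side, Hsd17b6, a steroid enzyme, rose from 47.8 to 115 FPKM, Mfsd2a, a carrier of lysolipids, from 37.9 to 78.4, and Aldh1b1, a mitochondrial aldehyde dehydrogenase, from 15.1 to 28.5. Cyp2f2, a periportal cytochrome, fell from 509.7 to 284 FPKM. Hepatocyte identity genes had 2 of 20 lower, Foxa1 and its relative Foxa3 (26.7 to 15.95 FPKM), while Hnf4a was at 107 and 82.3 and was not called.

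Secreted liver proteins fell in selected places. Of 44 tested complement and coagulation genes 0 rose and 4 fell, and all 4 encode parts of the membrane attack complex: C6 (52.9 to 3.57 FPKM), C8a (139 to 30.6), C8b (167 to 81.7) and C9 (255 to 67.8). C8g, the remaining subunit of the eighth component, was at 475 FPKM in SID and 336 in HID, Hc, the fifth component, at 87.7 and 65.2, and C3, the central component, at 753 and 623. None of these 3 was called. C6 and C8b are also on the male-biased list. Among serpins, inhibitors of proteases, 4 of 21 tested members fell, among them Serpina4-ps1, listed as a pseudogene (87.8 to 4.66 FPKM), and Serpine2 (4.08 to 0.531). Acute-phase genes had 2 of 25 higher and 2 lower. Apcs, the serum amyloid P gene, rose from 141 to 327 FPKM, Saa4 fell from 53.6 to 26.6, and the inducible Saa1 was at 108 and 70.6.

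Some lipid genes were called, in both directions, beside 2.82% higher and 3.84% lower over all tested genes. Near those shares were 3.33% higher for lipoproteins, 3.45% higher for fatty acid and triglyceride synthesis and 3.85% lower for cholesterol synthesis. Further from them were 10.3% lower for fatty acid and triglyceride synthesis and 8.33% higher for fatty acid oxidation. Apoa4, a lipoprotein gene, rose from 1012 to 2645 FPKM and was the 1 called gene among 30 tested for lipoproteins. Of 29 tested genes of fatty acid and triglyceride synthesis 1 rose and 3 fell, with a list median of 0.00. Cd36, which takes up fatty acids, rose from 10.2 to 34.5 FPKM. Elovl3, which lengthens fatty acids, fell from 207 to 3.72 FPKM, Thrsp, a regulator of lipid synthesis, from 703 to 361, and Agpat2, which makes phosphatidic acid, from 98.7 to 52.5. Fasn, the fatty acid synthase, was at 70.4 FPKM in SID and 72.95 in HID. Of 26 tested cholesterol synthesis genes 1 fell, the decarboxylase Mvd (14.9 to 8.64 FPKM). Of 48 tested genes of fatty acid oxidation 4 rose and 2 fell. Cyp4a14, a fatty acid hydroxylase under PPARA, rose from 136 to 372 FPKM, while Cpt1a, which admits fatty acids to mitochondria, was at 45.5 and 60.9 and was not called.

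Bile acid genes had 2 of 30 tested members higher and 4 lower. Cyp8b1, which directs synthesis to cholic acid, fell from 200.4 to 101 FPKM, and Nr0b2, which encodes the repressor SHP, fell from 22.2 to 13.1. Cyp7a1, the rate-limiting enzyme, stood at 18.2 FPKM in SID and 18.4 in HID and was not called. Steroid enzymes had 1 of 23 higher and 4 lower, with Srd5a1, a steroid reductase, at 40.8 FPKM in SID and 9.13 in HID. In glucose metabolism 1 of 37 rose and 1 fell, 2.70% each, near the 2.82% and 3.84% over all tested genes. They were Sds, which turns serine into pyruvate (83.8 to 154 FPKM), and G6pc, the last step of glucose release (205 to 108). Pck1, an early step of glucose synthesis, was at 486 and 369 FPKM and was not called. Urea cycle and amino acid genes had 1 of 52 higher (1.92%) and 3 lower (5.77%), among them Csad, which makes taurine (94.3 to 31.4 FPKM).

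The clock genes moved both ways, with 3 of 18 tested higher and 5 lower. Dbp, an output factor of the clock, rose from 2.10 to 19.03 FPKM and Nr1d2, a repressor of the loop, from 9.24 to 15.4. Arntl, which encodes BMAL1, fell from 5.09 to 2.21 FPKM, Cry1, a repressor, from 5.86 to 1.46, and Nfil3, which opposes Dbp at shared sites, from 17.3 to 3.66. Per1 was at 2.09 FPKM in SID and 2.13 in HID and Per2 at 1.41 and 1.12, neither called. Diet and time of collection cannot be told apart here, because no collection time is given. Immediate-early genes, which answer handling and stimulation within minutes, had 4 of 20 higher and 1 lower, with Klf10, an early TGF-beta response gene, at 7.65 and 14.4 FPKM and Egr1 at 9.11 and 9.95, the second not called. The cell cycle list had 2 of 13 higher. Ccnd1, which encodes cyclin D1, rose 9.37-fold, from 4.16 to 38.9 FPKM, and Cdkn2c, an inhibitor of its partner kinases, from 2.59 to 5.38. Pcna, a replication clamp, was at 19.05 FPKM in SID and 19.7 in HID, and the division markers Mki67 and Top2a were under 1 FPKM. In the lysosome list 1 of 36 rose, the membrane protein gene Cd63 (5.89 to 32.8 FPKM), and in the fetal liver list 1 of 6, Gpc3, a surface proteoglycan gene (1.08 to 4.05).

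The housekeeping machinery gave no calls. The 76 tested genes of the respiratory chain and ATP synthase had 0 called and a list median of −0.07, the 22 of the tricarboxylic acid cycle 0 and −0.05, and the 80 cytoplasmic ribosomal protein genes 0 and 0.22. Of the ribosomal genes 66 of 80 were above 0, with Rpl39 at the high end (570.2 FPKM in SID and 929 in HID, adjusted p = 0.0968 in the authors' deposited table). At the low end Rps27 was at 21.8 FPKM in SID and 3.69 in HID (adjusted p = 0.916 in the authors' deposited table). Fh1, the fumarase gene, had the lowest change of the tricarboxylic acid cycle, at 123 and 79.5 FPKM, and was not called.

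Of the 20 largest called changes in each direction 4 genes were on no list, among them Scd3, Fam25c and Prap1. Outside the lists Ces3a, a carboxylesterase of lipid droplets, fell from 778 to 207 FPKM, and Car3, a carbonic anhydrase, fell from 695 to 212. Scd3, a stearoyl-CoA desaturase, fell from 8.91 to 0.09305 FPKM, while its abundant relative Scd1 was listed at 0 in SID and could not be compared. Ttc39c fell from 121 to 34.3 FPKM and Nnmt, which methylates nicotinamide, from 56.4 to 19.7. Inhbc, an activin subunit gene, fell from 25.5 to 9.61 FPKM, and Fam25c fell from 66.7 to 5.98. Among genes that rose, Neat1, the long non-coding RNA of paraspeckles, went from 21.04 to 85.1 FPKM, Rgs16, a regulator of G protein signalling, from 27.3 to 84.9, and Sgk1, a kinase induced by corticosteroids, from 5.11 to 20.6. Gpcpd1, a phosphodiesterase of choline metabolism, rose from 8.65 to 39.6 FPKM, Defb1, a defensin, from 5.96 to 28.9, and Rnaset2b, a ribonuclease, from 59.96 to 179. Prap1 was called lower but was listed at 0 in HID and LID, against 5.09 FPKM in SID, so no fold is given.

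Families put together after the values were seen showed shared and divided directions. Carboxylesterases had 7 of 13 tested members lower and 1 higher, Ces1g (55.4 to 107 FPKM). Tubulins, the subunits of microtubules, had 4 of 11 lower and 0 higher, with Tubg1 at 15.6 FPKM in SID and 8.16 in HID. The N-acetyltransferase 8 family had 4 of 5 lower, with Nat8 falling from 14.4 to 3.07 FPKM. Apolipoprotein L genes had 2 of 3 higher, with Apol9a rising from 19.3 to 73.4 FPKM. Both cold-inducible RNA-binding protein genes rose, Cirbp from 5.84 to 10.9 FPKM and Rbm3 from 42.4 to 82.7. Since these families were chosen for such counts, the counts are descriptions only. In the gene order of RefSeq, 9400 tested genes had a place, and 15 runs of at least 3 neighbouring tested genes called in 1 direction held 49 genes. They included Cyp2b10, Cyp2b13, Cyp2b9 and Cyp2a4 on chromosome 7 and Mup4, Mup6, Mup5 and Mup21 on chromosome 4. Most runs were gene families, in which similar sequences can share reads.

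The low-iron group gave a further point for each gene, with the SID value common to both comparisons. Some BMP target genes were ordered by dietary iron. Id1 was at 3.65 FPKM in LID, 8.54 in SID and 73.6 in HID, and Atoh8, a transcription factor that promotes hepcidin, was at 2.08, 7.45 and 23.3. Id4, Smad6 and Smad7 also had their lowest value in LID, but their LID and SID values did not differ at the threshold. The adjusted p of LID against SID was 0.957, 0.372 and 0.0532 in the authors' deposited table. Other genes had SID as their highest value. Gstp1 was at 669 FPKM in LID, 2448 in SID and 655 in HID, and Hspa1b, an inducible HSP70 gene, was at 3.15, 17.6 and 4.24. Some of the large HID changes had LID near SID, such as Cyp2b10 at 0.142 FPKM in LID against 0.208 in SID, Oasl1, an interferon-stimulated gene, at 2.46 against 3.16, and Slco1a1 at 167 against 156. LID mice were also younger when their diet began, so diet and age at start cannot be told apart in that group.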

How the data were processed

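RNA was extracted with Trizol from livers flash frozen on dry ice, and libraries were made with a TruSeq RNA kit, per the labels' protocols. TopHat, Cufflinks 2.2.1 and genome build mm9 are named in the submitters' processing notes. The deposited table holds 1 FPKM value per gene and diet in which the authors had merged the 3 mice per group, so no test over libraries could be fitted here. Its unit was taken from the tools named, since the file headers do not give it. Per the file headers its diet columns are NORM, LFE and GFE, and GFE was taken as HID by elimination. The authors also deposited a p-value and an adjusted p-value for each contrast, but the sources used here do not name the test behind it. A gene counted as tested when its deposited adjusted p-value was below 1, and as called below 0.05. Animals are separate per the labels, but the spread between them cannot be seen. The 75 genes without a test stay out of every count.

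From these values the difference of log2(FPKM + 1), HID minus SID, was computed with Python 3.11.15, pandas 2.3.3 and numpy 2.4.6, and drawn with matplotlib 3.10.9. The genes and lists were chosen with earlier results of these data known. Named were the 20 called genes per direction with the largest change, the 12 with the highest level, up to 6 called genes per list and direction (or, where none was called, the 2 with the highest level), the 20 largest changes on no list, and a fixed set of iron genes. Uncalled pathway members, further called genes of a list, and the families and mesothelial markers with their genes were named after their values were seen. Dates had replaced 25 gene names, which were not matched. The methylation table was not used here. Promoter sequences and gene order are those of RefSeq on GRCm38.p6, matched by symbol, and no coordinates of mm9 are printed. The sources used here do not say whether strand was used in counting, and antisense and overlapping genes cannot be told apart. Results for a few named genes are not reported here, though list counts include them.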

Additional observations from a re-analysis of the deposited data

How the results depend on the processing

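Counts of called genes depended on the filter and on the call rule. A mean of at least 5 FPKM left 128 higher and 240 lower, an adjusted p below 0.01 left 193 and 217, and an added 2-fold limit left 116 and 116, so the excess of lower calls was not seen under the last rule. No filter gave 328 and 407, a filter on HID and SID only 271 and 362, adjustment within the contrast 293 and 409, and leaving out genes listed at 0 gave 266 and 363. A call rests on the deposited adjusted p, and the log2 change sets only its direction. The smallest absolute change of a called gene was 0.42. Centring on the median of tested genes or on the upper quartile of each diet therefore could change neither count. The upper quartile was lower in HID by 0.10 on the log2 scale. Among 258 named genes with a test, 47 called genes lost their call at an adjusted p below 0.01. None of the 258 changed its call with adjustment within the contrast. Another pseudocount could not change a call, because it enters neither the deposited adjusted p nor the direction. The uncalled genes that changed sign when centred were Bola3, from −0.01 to 0.057 (median) and 0.086 (upper quartile), and Hfe, from −0.06 to 0.0094 and 0.039. No paired analysis was possible because the table has 1 combined value per diet, and for the same reason no animal could be left out. All alternatives that were run are named here. Depth is unknown, so no limit for low genes can be given.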

Other observations

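Some genes differed by more than 2-fold without being called. Of 248 genes past 2-fold on the FPKM + 1 scale 16 were not called, and their median level of 8.91 FPKM was close to the 7.55 FPKM of called genes. There were 11 tested genes listed at 0 in HID or SID, and 2 of them, Cyp2b13 and Prap1, were called. At an unadjusted p below 0.05 in the authors' deposited table there were 1711 genes, of which 1080 were not called after adjustment.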
